A study of Mus musculus with 2 samples.

Results

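The mitochondrial carriers of the Slc25 family were followed in bone-marrow-derived macrophages of C57BL6 mice, cultured with the growth factor MCSF and either left untreated (control) or treated with LPS, a component of the Gram-negative bacterial surface. Total RNA of each condition was hybridized to 1 Mouse Genome 430 2.0 array, and neither the dose nor the duration of LPS is stated in the labels. Members were the genes whose symbol begins with Slc25a, together with Ucp1, Ucp2, Ucp3, Mtch1 and Mtch2, wherever the array annotation assigns a probe set to that gene alone. This gave 48 genes on 104 probe sets, out of 18193 genes on 34945 probe sets. Slc25a21, Slc25a43 and Ucp2 were not analysed here. Since each condition is a single array, nothing can be tested and no replicate error is known. The differences describe these 2 arrays alone, and their number limits the precision of all values.

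The mitochondrial inner membrane is closed to most metabolites, and Slc25 carriers are the proteins that exchange them across it. They are built from repeated pairs of membrane helices, are encoded in the nucleus and are imported through the outer-membrane TOM complex and the inner-membrane TIM22 complex. In macrophages activated by LPS, mitochondria are known for a turn from ATP production towards making signalling metabolites, and carriers are the route by which citrate, aspartate, malate and nucleotides enter or leave.

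Transcript levels are given as MAS5 signals, in linear intensity units, and a signal counted as measured when it reached its array's own median, called the floor (35.1 units for control and 26.7 for LPS). Differences are log2 LPS minus log2 control, for the brightest probe set of a gene, and a signal under its floor was raised to the floor first. A gene was called higher or lower from 2-fold upwards. The median of all 11722 measured genes was -0.42 on this log2 scale, so most genes read lower on the LPS array, and values after centring on that median are given where they change a call. The only gauge of technical spread is the agreement of probe sets: the SD of the log2 ratios over a gene's probe sets had a median of 0.28 over 4494 genes and of 0.26 over 18 members.

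The largest differences lay in a few carriers. Slc25a22 was 10.5-fold higher and Slc25a12 3.11-fold higher on the LPS array, while Slc25a13, which encodes the close relative of the Slc25a12 protein, was 3.40-fold lower. Slc25a30 was 5.39-fold lower, Slc25a51 3.93-fold and Slc25a36 3.44-fold. The sequences directly before the gene starts of 6 carriers are shown because they are the members called in opposite directions within pairs of relatives, or, for Slc25a22 and Slc25a30, the largest ratios in each direction. They are the 250 bases before a RefSeq start (build GRCm38.p6), 5′ to 3′ on the gene's strand. Capitals mark matches, on either strand, to the searched motifs.
Slc25a22, chr7:141435376-141435625, - strand: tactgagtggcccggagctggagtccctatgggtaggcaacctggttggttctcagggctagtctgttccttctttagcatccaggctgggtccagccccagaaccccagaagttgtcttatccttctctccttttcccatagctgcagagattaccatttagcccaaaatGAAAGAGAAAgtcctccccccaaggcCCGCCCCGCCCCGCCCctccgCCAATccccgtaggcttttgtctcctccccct
Slc25a12, chr2:71367756-71368005, - strand: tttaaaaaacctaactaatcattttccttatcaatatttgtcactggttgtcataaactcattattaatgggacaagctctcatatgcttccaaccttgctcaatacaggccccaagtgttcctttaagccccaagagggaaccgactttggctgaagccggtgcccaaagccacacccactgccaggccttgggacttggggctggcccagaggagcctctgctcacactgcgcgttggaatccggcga
Slc25a13, chr6:6217174-6217423, - strand: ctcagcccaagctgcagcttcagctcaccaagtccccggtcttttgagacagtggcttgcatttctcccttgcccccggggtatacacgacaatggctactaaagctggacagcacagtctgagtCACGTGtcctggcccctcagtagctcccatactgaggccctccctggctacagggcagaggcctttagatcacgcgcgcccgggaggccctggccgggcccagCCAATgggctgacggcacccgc
Slc25a25, chr2:32424067-32424316, - strand: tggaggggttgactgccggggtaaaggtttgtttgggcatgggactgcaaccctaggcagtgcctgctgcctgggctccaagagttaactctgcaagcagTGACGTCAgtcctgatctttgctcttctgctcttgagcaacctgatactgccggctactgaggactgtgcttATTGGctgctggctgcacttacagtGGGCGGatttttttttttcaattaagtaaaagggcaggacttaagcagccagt
Slc25a24, chr3:109122899-109123148, + strand: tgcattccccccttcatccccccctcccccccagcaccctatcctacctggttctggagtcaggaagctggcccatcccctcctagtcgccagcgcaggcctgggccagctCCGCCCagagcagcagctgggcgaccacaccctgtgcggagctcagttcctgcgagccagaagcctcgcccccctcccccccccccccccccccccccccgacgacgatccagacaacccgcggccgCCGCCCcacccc
Slc25a30, chr14:75787038-75787287, - strand: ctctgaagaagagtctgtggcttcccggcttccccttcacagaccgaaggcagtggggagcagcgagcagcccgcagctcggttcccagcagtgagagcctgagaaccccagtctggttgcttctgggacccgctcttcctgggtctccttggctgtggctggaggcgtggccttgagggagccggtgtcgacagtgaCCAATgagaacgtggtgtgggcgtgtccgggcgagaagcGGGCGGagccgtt

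The motifs were the NF-kB consensus (by name), the NRF1 motif (GCGC, any base, TGCGC), the E-box CACGTG, the CRE TGACGTCA, the ISRE core (GAAA, any 2 bases, GAAA), the CCAAT box and the GC box GGGCGG, and a base may lie in overlapping matches. In the Slc25a22 window an ISRE core lay 79 to 70 bases before the start, followed by 3 overlapping GC boxes and a CCAAT box. This is the RefSeq start of Slc25a22 with the most matches of the 3 listed; the others held 1 GC box each. The Slc25a12 window held 0 matches, and the Slc25a13 window held an E-box and a CCAAT box. The Slc25a25 window held a CRE 150 to 143 bases before the start, a CCAAT box and a GC box. It is 1 of 3 starts listed for that gene and was shown for its CRE: the others held none, but 3 CCAAT boxes and 1 GC box, and 2 CCAAT boxes. The Slc25a24 window held 2 GC boxes. The Slc25a30 window held a CCAAT box and a GC box. Over the 33 measured members whose starts were used, 43 windows were searched. Member starts on 1 chromosome were left out here, while the complete set of windows kept that chromosome. An ISRE core was found in 4.65% of these windows (Slc25a22, called higher, and Slc25a15, called lower) and in 2.98% of all 32851 windows. A CRE was in 4.65% (Slc25a25, called higher, and Slc25a36, called lower) and 1.55%. An NF-kB consensus was in 4.65% (Slc25a1 and Slc25a10) and 3.90%. E-boxes were in 16.3% of member windows and 6.02% of all, GC boxes in 76.7% and 32.7%, CCAAT boxes in 46.5% and 33.8% and NRF1 motifs in 4.65% and 3.74%. The complete set includes starts of non-coding genes and was not limited to measured genes, whereas the member windows were. A match is a description of the letters and not a bound site.

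Of the 48 carrier genes, 40 were measured on at least 1 array, 38 of them on both, and 8 lay under both floors. Among the 40, 3 passed 2-fold on the higher side and 9 on the lower side, with 28 in between; of those 28, Slc25a33 and Slc25a35 lay under 1 floor, so that their ratios are bounds. That is 7.5% higher against 8.22% of all measured genes, and 22.5% lower against 26.2% of all measured genes, so the family's shares lie near the background. After median centring 6 were higher (15%, with 13.1% of all genes) and 7 lower (17.5%, with 15.3% of all genes). Slc25a10, Slc25a28 and Slc25a44 are the additions on the higher side, and Slc25a15 and Slc25a32 drop from the lower side. The members' median log2 ratio was -0.47, beside -0.42 for all genes, and the members' quartiles were -0.88 and 0.06, beside -1.05 and 0.10 for all genes. In bulk RNA, a change in the share of cells and a change in RNA per cell cannot be told apart.

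**Figure D1:**
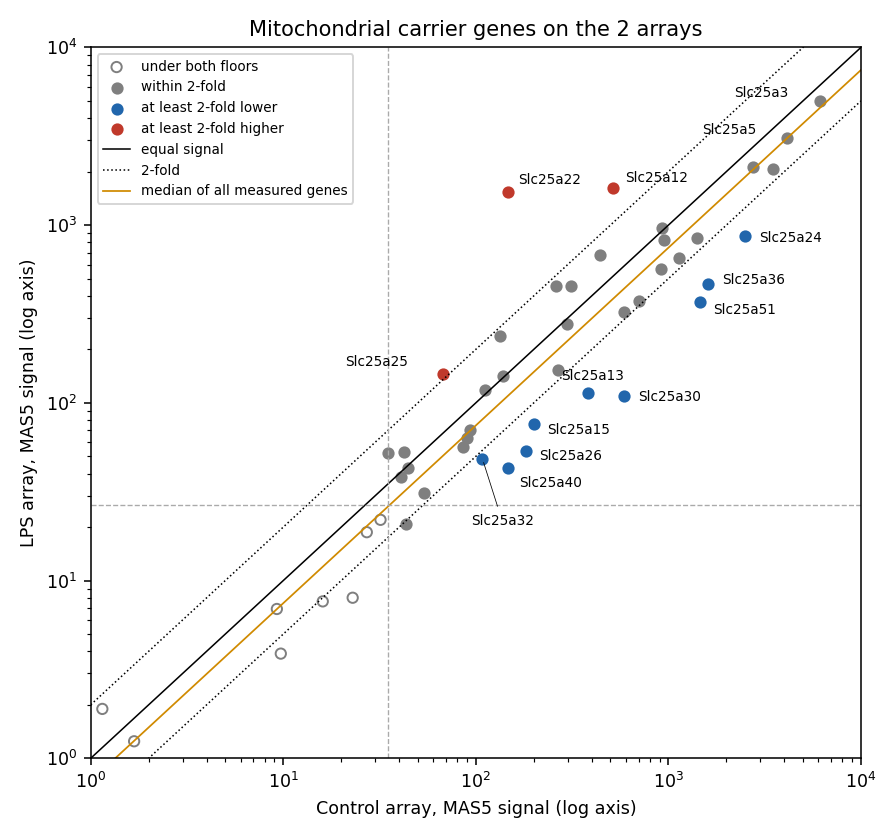
MAS5 signal of the 48 carrier genes (brightest probe set) in the control (x) and after LPS (y), both on log axes; each point is 1 gene, dashed lines are the floors, dotted lines mark 2-fold and the orange line the median ratio of all measured genes. Slc25a22, Slc25a12 and Slc25a25 lie above the upper 2-fold line and the 9 genes drawn in blue lie below the lower one, while the brightest points, up to 6097 units for Slc25a3, stay between the lines.

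Carriers of aspartate and glutamate held the widest differences. Slc25a22 encodes a mitochondrial glutamate carrier that moves glutamate together with a proton. Its single probe set read 146.9 units in the control and 1536 after LPS, a log2 ratio of 3.39, above 98.6% of all measured genes. With only 1 probe set, this value has no second reading on the array. It lay between 3.25 and 3.81 over the 11 alternative ways of processing.

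Slc25a12 and Slc25a13 encode the calcium-regulated aspartate/glutamate exchangers aralar and citrin, which serve the malate-aspartate shuttle and bring aspartate out to the cytosol. Slc25a12 went from 518.0 units in the control to 1611 after LPS (log2 ratio 1.64). Its other measured probe sets stood at 1.62 and 0.50, the latter with its control signal under the floor, so all 3 were higher. Slc25a13 went from 384.3 to 113.0 (log2 ratio -1.77) on its single probe set. The paralogues differed by 3.40 log2 units, 10.6-fold, a difference that no common scaling of the arrays can alter. Under quantile normalization and loess it was 2.999 and 2.84. Slc25a18, the other glutamate carrier gene, was under both floors, at 32.0 and 21.96 units.

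**Figure D2:**
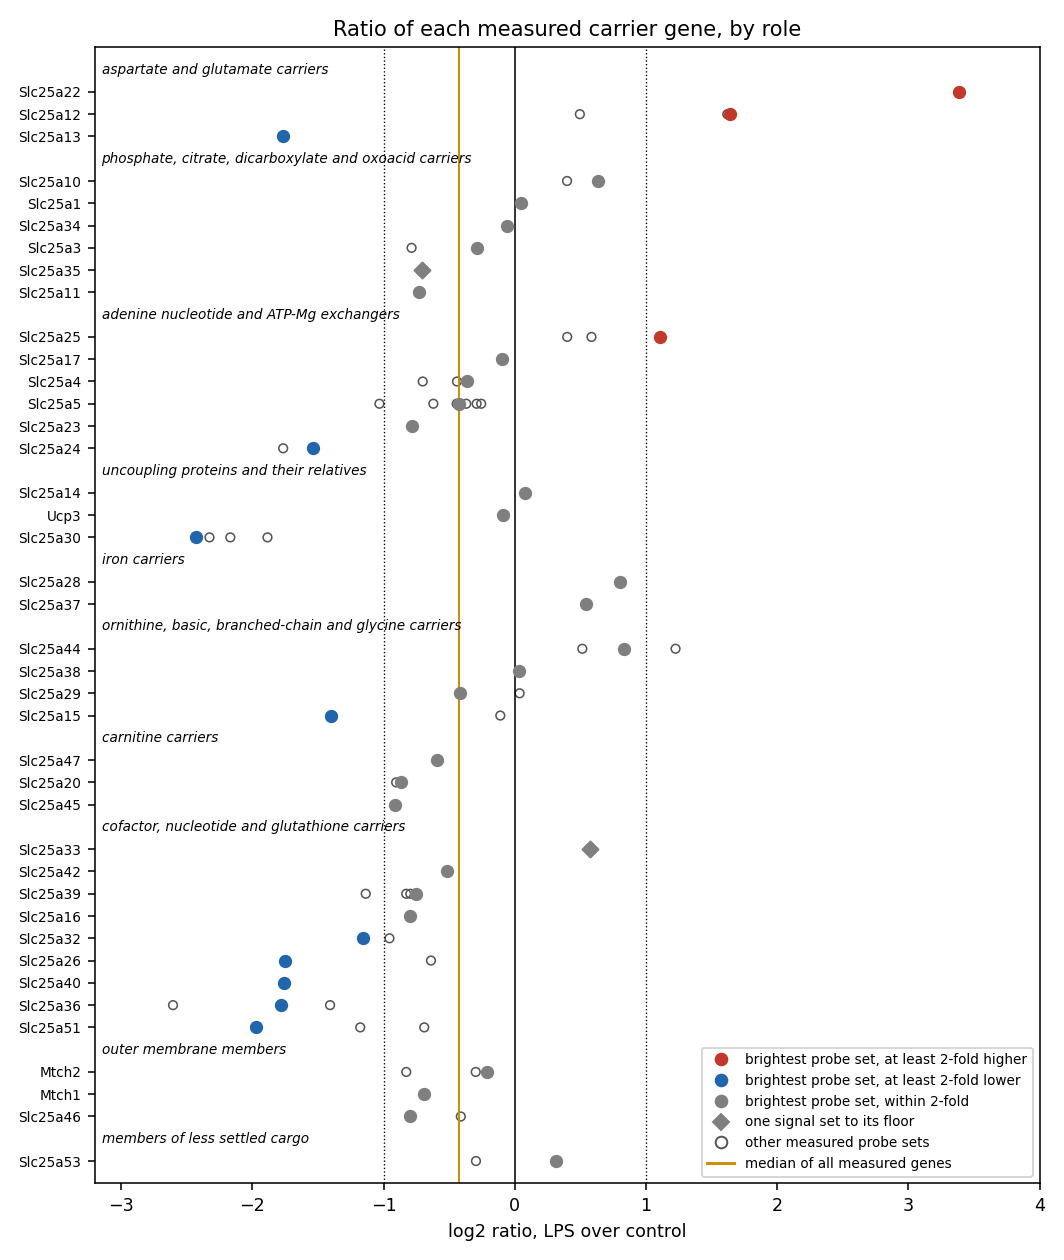
Log2 ratio of LPS over control (x) for the 40 measured carrier genes, grouped by what they carry; filled symbols are the brightest probe set, open circles a gene's other measured probe sets, and diamonds mark genes with 1 signal set to its floor. Slc25a22 stands at 3.39 and Slc25a30 at -2.43, and the 9 called genes with more than 1 measured probe set have all of them on the same side of 0. In only 3 of these 9 genes did every measured probe set pass 2-fold, with signals under a floor raised to it.

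Of the 6 carriers of phosphate, citrate and dicarboxylates, all measured, 0 were called as deposited, though for Slc25a35 the ratio is only a bound. Of all measured genes, 8.22% were called higher and 26.2% lower. Slc25a3, the phosphate carrier that feeds ATP synthase, read 6097 and 4995 units, control first as in all pairs of signals that follow, a log2 ratio of -0.29 that turns to 0.14 after median centring. By contrast, Slc25a3 stood at -0.46 with loess and at -0.48 with quantile normalization. Its other probe set, the only plain one (not of the types that can match several transcripts), was dim, at 60.6 and 35.1 units, and stood at -0.79. Slc25a1, which exports citrate for fatty acid and acetyl-CoA supply, read 925.0 and 958.2 (log2 ratio 0.05). Slc25a10, the dicarboxylate carrier for malate and succinate, went from 439.8 to 681.7 (0.63, and 0.40 on its other probe set); after median centring its ratio is 1.05, past 2-fold. Slc25a11, the oxoglutarate/malate carrier of the malate-aspartate shuttle, went the other way, from 1410 to 848.4 (-0.73), and the ratios of Slc25a10 and Slc25a11 differed by 1.36 log2 units. Slc25a34 read 44.6 and 42.8 units, and Slc25a35 read 43.6 and, under the floor, 20.7, at least 1.64-fold lower. With the floor at the 35th percentile the Slc25a35 ratio is -1.07, past 2-fold. The cargo of Slc25a34 and Slc25a35 is less settled.

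The 6 measured adenine nucleotide carriers had log2 ratios from -1.54 to 1.11. Slc25a4 and Slc25a5, the ADP/ATP translocases that export ATP, read 2744 and 2128 units and 4139 and 3088 units. Their log2 ratios of -0.37 and -0.42 lie at the median of all genes, so that centring brings them to 0.06 and to 0.00. With loess the 2 ratios are -0.50 and -0.58, and with quantile normalization -0.52 and -0.61. All 8 probe sets of Slc25a5 were measured, from -1.03 to -0.26; the lowest value is that of its only plain probe set, which read 913.1 and 446.7 units and would by itself be called lower. The others are of the _x_at and _a_at types, which can share probes with related sequences or transcripts. The ATP-Mg/phosphate carriers, which load or unload adenine nucleotides in response to calcium, lay on both sides. Slc25a25 went from 67.3 to 145.0 units (2.15-fold higher, log2 ratio 1.11), with its other probe sets at 0.58 and 0.40, both limited by the control floor. Slc25a24 went from 2508 to 863.8 units (2.90-fold lower, -1.54), with its other probe set at -1.77. The log2 ratios of Slc25a25 and Slc25a24 were 2.64 apart, and Slc25a23 lay between them at -0.79, with signals of 53.8 and 31.2. The Slc25a23 ratio is -0.29 with loess, and its LPS signal is close to the floor. The 2-fold call of Slc25a25 ends with the median of its probe sets (0.58), a floor at percentile 65 (0.67) or a pseudocount of 16 (0.95). Slc25a17, the peroxisomal member, read 298.9 and 279.3, and Slc25a31 and Slc25a41 were under both floors.

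Among the uncoupling proteins and their relatives, Slc25a30 alone of the 3 measured passed 2-fold. Among all measured genes, 8.22% did so on the higher side and 26.2% on the lower side. Ucp1, the heat-producing proton leak of brown fat, was at 1.68 and 1.25 units, under both floors, and Ucp3 was just above them, at 40.6 and 38.2. Slc25a30, also called KMCP1, an uncoupling protein relative first described in kidney, went from 591.1 to 109.7 units, 5.39-fold lower. Its 4 measured probe sets ranged from -2.43 to -1.88, and 4.03% of all measured genes had a lower ratio. The value of -1.88 is a bound, since that probe set read 98.5 and, under the floor, 6.55 units. Slc25a14, the brain-type relative, read 111.1 and 117.5 units (0.08), 2.51 log2 units above Slc25a30. The Slc25a14 ratio is 0.82 with loess and 0.68 with quantile normalization. Slc25a27 was under both floors on all 4 probe sets.

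The mitoferrins, Slc25a28 and Slc25a37, which bring iron into the matrix for heme and iron-sulfur clusters, were similar to each other. Slc25a28 went from 260.1 to 452.8 units (log2 ratio 0.80) and Slc25a37 from 311.1 to 452.9 (0.54). Both ratios stayed above 0 under every scaling tried, at 1.22 and 0.96 after median centring, so that only Slc25a28 passes 2-fold there. The probe set that the annotation shares between Slc25a37 and another gene was left out.

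Carriers of basic, branched-chain and simple amino acids lay on both sides of the array-wide median. Slc25a15, the ornithine/citrulline exchanger of the urea cycle, went from 200.2 to 76.0 units (2.64-fold lower, log2 ratio -1.40). Its second probe set stood at -0.11, and after median centring the ratio is -0.98, short of 2-fold. Slc25a44, a carrier of branched-chain amino acids, went from 134.1 to 238.9 units (0.83), with its other probe sets at 0.51 and 1.23. After median centring the Slc25a44 ratio is 1.26, past 2-fold. Slc25a38, the glycine carrier needed for heme synthesis, read 138.6 and 142.0 units, and Slc25a29, a carrier of basic amino acids, 93.3 and 70.0. Their log2 ratios were 0.03 and -0.41. With loess they are 0.74 and 0.31, and with quantile normalization 0.60 and 0.20. Slc25a2, the second ornithine carrier, was under both floors.

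Of the 3 measured members of the carnitine group, 0 passed 2-fold, beside 8.22% of all measured genes higher and 26.2% lower. Slc25a20, the carnitine/acylcarnitine exchanger of fatty acid oxidation, went from 590.3 to 323.3 units (log2 ratio -0.87, with its other probe set at -0.90), and Slc25a45 from 699.9 to 371.9 (-0.91). After median centring these ratios are -0.45 and -0.49. Slc25a47 went from 85.4 to 56.7 (-0.59), a ratio of -0.17 after median centring that turns to 0.09 with loess, and Slc25a48 was under both floors. The last 3 were placed here by likeness, and their cargo is less settled.

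Of the 9 carriers of cofactors, nucleotides and glutathione, the role group with the most measured members, 5 were called lower as deposited, where 26.2% of all measured genes were. After median centring 4 were, beside 15.3% of all genes. On the higher side 0 passed in either case, but Slc25a33 does with loess (1.08) and quantile normalization (1.07). Slc25a51, the NAD carrier, went from 1452 to 369.5 units (3.93-fold lower, log2 ratio -1.97). Its other probe sets stood at -1.18 and -0.69. Slc25a36 and Slc25a33 encode pyrimidine nucleotide carriers, which supply mitochondrial DNA and RNA synthesis, and they lay far apart. Slc25a36 went from 1613 to 468.5 units (-1.78, over 3 probe sets from -2.61 to -1.41), whereas Slc25a33 went from 34.98, just under the floor, to 52.1, at least 1.49-fold higher. The value of -1.41 for Slc25a36 is a bound, since that probe set was under the LPS floor, at 23.2 units. The ratios of Slc25a36 and Slc25a33 were at least 2.35 log2 units apart.

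Slc25a26, which imports S-adenosylmethionine for methylation inside mitochondria, went from 181.3 to 53.8 units (-1.75). Its other probe set stood at -0.64, a bound because its LPS signal was under the floor. Slc25a40 went from 146.0 to 43.1 units (-1.76), and its relative Slc25a39, the glutathione importer, from 3498 to 2079 (-0.75, over 4 probe sets from -1.14). Their log2 ratios were 1.01 apart as deposited but 0.15 apart with loess. Slc25a32, the folate and FAD carrier, went from 108.2 to 48.4 units (-1.16), with -0.74 after median centring. The coenzyme A carriers Slc25a16 and Slc25a42 had log2 ratios of -0.80 and -0.52, with signals of 265.6 and 153.1 and of 90.2 and 63.0. With loess the Slc25a16 ratio is -0.17, and that of Slc25a42 turns to 0.19 with loess and to 0.09 with quantile normalization.

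**Figure D3:**
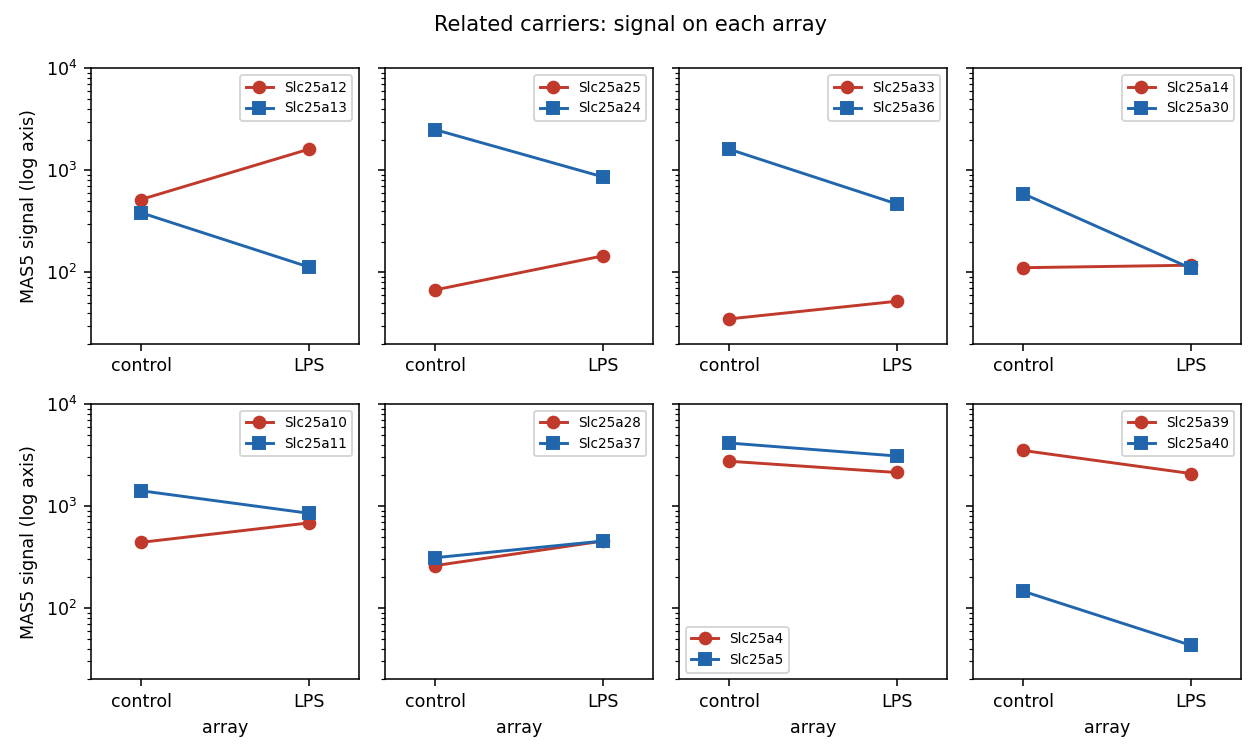
MAS5 signal (log axis) on the control and LPS arrays for 8 pairs of related carriers, 1 panel per pair and 1 point per array; the slopes can be compared, but the heights belong to different probe sets and cannot. Lines part for Slc25a12 and Slc25a13 (log2 ratios 1.64 and -1.77) and for Slc25a25 and Slc25a24 (1.11 and -1.54), while Slc25a4 and Slc25a5 run in parallel (-0.37 and -0.42).

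The 3 outer membrane members were within 2-fold, beside 8.22% of all measured genes called higher and 26.2% lower. Mtch2, which inserts proteins into the outer membrane, read 951.2 and 821.4 units (-0.21, turning to 0.21 after median centring). Its other measured probe sets stood at -0.30 and, for the only plain one of the 3, at -0.83. Mtch1 read 913.2 and 564.5 (-0.69). Slc25a46, which takes part in mitochondrial fusion and fission, read 1136 and 654.7 (-0.80, with its second probe set at -0.41). Slc25a53, of unsettled cargo, read 42.2 and 52.6 units, with probe sets at 0.32 and -0.30, and Slc25a54 was under both floors.

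The members were also set beside genes of like brightness. Between mean log2 signals of 5 and 7 the 14 members had a median ratio of -0.47, beside -0.61 for all genes of that brightness. Between mean log2 signals of 7 and 9 the 11 members had a median ratio of -0.10, beside -0.61 for all genes of that brightness, and between 9 and 11 the 10 members had -0.71 beside -0.23. The 4 members from 11 upwards lay between -0.75 and -0.29, beside a median of -0.08 for all genes. Of 20 members read by several measured probe sets, 18 had them all on the same side of 0, the exceptions being Slc25a29 and Slc25a53. The like share was not computed for all genes, of which only 28.9% of those measured had a ratio above 0.

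Other mitochondrial genes around the carriers were read from 7 lists, of which 100 genes were measured: 9 passed 2-fold on the higher and 24 on the lower side, beside the 8.22% and 26.2% of all genes. After median centring these were 12 and 13. Of 15 measured genes of the import machinery that brings carriers into the membrane, 0 were higher, 1 lower (Tomm40l, 2.11-fold) and 14 within 2-fold, with a median of -0.28. After centring, 1 was higher and 0 lower. Of 19 other mitochondrial membrane transporters, Tspo was 2.24-fold higher and Slc8b1, the sodium/calcium exchanger of mitochondria, 4.18-fold lower, followed by Sfxn3 (2.57-fold) and Abcb8 (2.43-fold). After centring, 2 were higher and 1 lower.

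Among the enzymes that use the carried substrates, both directions occurred. For all measured genes the shares were 8.22% higher and 26.2% lower, and 13.1% and 15.3% after centring. Of 10 measured aspartate, glutamate and ornithine enzymes, 2 were higher and 2 lower: Nos2 (at least 12.3-fold) and Odc1 (2.96-fold) were higher, and Got1, the cytosolic aspartate aminotransferase of the malate-aspartate shuttle, was 3.71-fold lower, with Glud1 2.40-fold lower. After centring, 3 were higher and 1 lower. Of 14 citrate, malate and oxoglutarate enzymes, Acod1, the itaconate enzyme, was higher (72.9 to 8671 units, 119-fold), and Pck2 (5.76-fold), Idh1 (3.48-fold) and Aco1 (2.44-fold) were lower. After centring, 1 was higher and 2 lower. Cs and Mdh2, picked from these 14 enzymes after their values were seen, stood at 0.06 and -0.05, close to Slc25a1 at 0.05. The median of this list was -0.22.

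Of 13 carnitine and acyl-CoA enzymes, 0 were higher and 4 lower, also after centring, beside 26.2% and 15.3% of all genes lower, and the list's median was -0.73. The lower genes were Pank1 (at least 8.98-fold), Coasy (4.91-fold), Acadm (3.61-fold) and Crat (3.49-fold). Pank1 and Coasy act in coenzyme A synthesis. Of 10 iron, heme and glycine enzymes, Alas1, the first enzyme of heme synthesis, was 2.67-fold higher, and Gcsh (3.06-fold), Fech (2.35-fold) and Cpox (2.34-fold) were lower. After centring, 1 was higher and 1 lower. Of 19 folate, nucleotide, NAD and glutathione enzymes, 4 were higher and 8 lower, beside 8.22% and 26.2% of all genes. After centring these were 4 and 4, beside 13.1% and 15.3%. Cmpk2, a mitochondrial pyrimidine nucleotide kinase, was 25.5-fold higher. Nadk2, the mitochondrial NAD kinase, was 13.5-fold lower, Gclc, which starts glutathione synthesis, 6.75-fold and Nmnat3, an NAD synthesis enzyme, 5.84-fold.

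**Figure D4:**
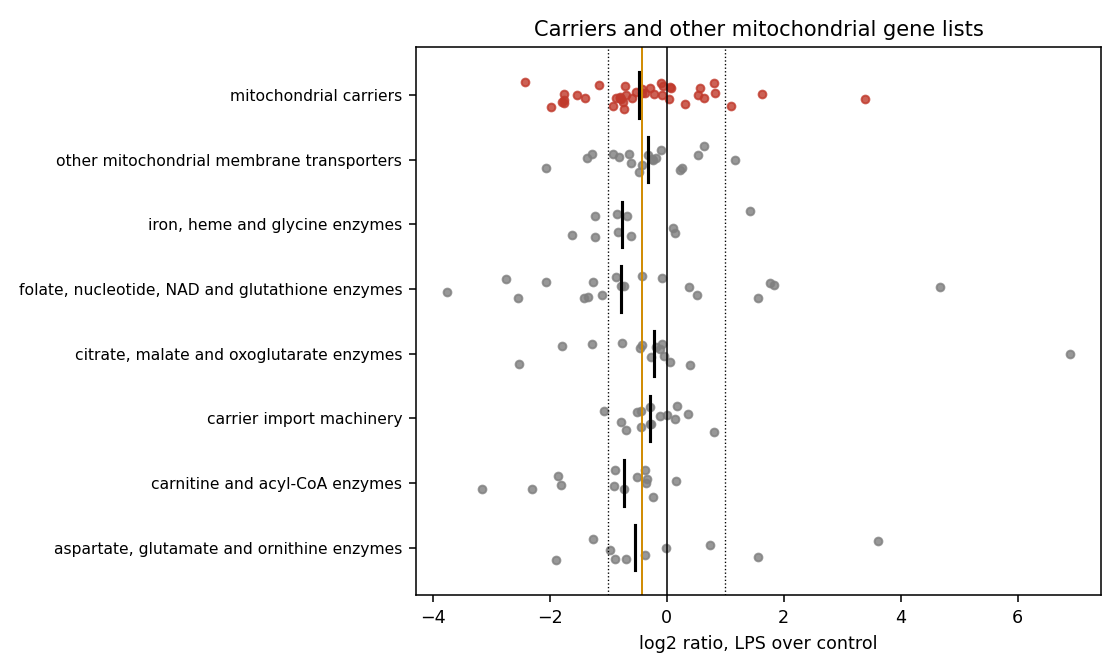
Log2 ratio of LPS over control for the 40 measured carriers (top, red) and for the measured genes of 7 other mitochondrial lists (grey); each point is 1 gene, spread vertically for legibility, black bars are medians, dotted lines mark 2-fold and the orange line the median of all measured genes. The carriers' median of -0.47 lies among those of the other lists, from -0.78 to -0.22.

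The labels were checked on marker genes. All 5 LPS response genes examined were higher on the LPS array, with Tnf at 102.2 and 6982 units. All 10 macrophage markers reached both floors, with summed signals of 51442 and 57696. Of 5 erythroid markers read, 1 (control) and 2 (LPS) reached the floor (sums 131.4 and 134.9), and Hba-a1 and Alas2 were under both floors. Of 6 brown adipocyte markers 1 reached the floor on each array (104.7 and 86.5), with Cidea and Adipoq under both. Of 5 T and NK cell and 5 mast cell markers, 0 did (47.9 and 61.0, and 31.6 and 52.1). Of 8 neutrophil markers 3 and 4 did (477.6 and 748.0), and of 7 stromal markers 1 and 2 (126.5 and 276.3). Of 5 B cell markers 2 did on both arrays, and their sum went from 2628 to 506.2: Ighm read 2459 and 435.3 units and Cd79b 110.0 and 35.3, whereas Cd79a, Ms4a1 and Pax5 were under both floors. Among the stromal markers, the higher LPS sum came from Pdgfrb, at 3.97 and 170.3 units. Col1a2 read 36.8 and 41.9, and Col1a1, Col3a1, Dcn, Pdgfra and Lum were under both floors. The part of all these cell types in the carriers' ratios was not tested.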

How the data were processed

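Each of the 2 arrays gave 1 column of values, assigned to control or LPS by sample title. The authors deposited a linear intensity per probe set, the MAS5 signal according to the labels' list of tools, per the submitters' processing notes. The version and scaling target of MAS5 are not stated there, and no detection call was used. Controls (64 of 45101 probe sets) were left out. Probe sets with several genes (932) or none listed (9160) were not named. All 48 member symbols matched RefSeq (GRCm38.p6), which supplied names and gene starts; no protein sequences were used here.

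The floor was the 50th percentile of non-control probe sets on each array. Each gene was represented by its brightest probe set (mean log2 signal over both arrays), and calls used 2-fold with no test. The members, lists, roles and settings were chosen with earlier results of these data known. Every member is named. From each enzyme or transporter list up to 4 genes past 2-fold with the largest ratios are named. Cs and Mdh2 were named after their values were seen, as were the compared pairs of relatives and the starts whose sequences are printed. Alternatives were lower and higher floors (percentiles 35 and 65), a pseudocount of 16 without floor, genes at both floors, quantile normalization, median centring, loess (span 0.4), scaling to hybridization or poly-A controls, the median of probe sets, plain probe sets, and 3-fold and 1.5-fold thresholds. Steps were tested on simulated data. Python 3.11.15, numpy 2.4.6 and pandas 2.3.3 were used.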

Additional observations from a re-analysis of the deposited data

How the results depend on the processing

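All 12 carriers called as deposited kept their direction under each of the 11 alternatives that leave the 2-fold threshold in place (10 for Slc25a26, which has no plain probe set). Several of these could not reverse a call. Median centring and scaling to controls shift all ratios alike, by 0.42 or less, and requiring both floors leaves the called values unchanged. Of the 12, 9 stayed past 2-fold in every alternative, while Slc25a15, Slc25a25 and Slc25a32 did not. The count of carriers at least 2-fold higher was 3, and it became 6 with median centring, 6 with quantile normalization, 6 with loess, 5 with poly-A control scaling (whose 24 probe sets had a median log2 ratio of -0.29) and 6 at 1.5-fold. The count at least 2-fold lower was 9, stayed between 7 and 10 under the other alternatives except for 3-fold (6), and became 19 at 1.5-fold. The carriers' median log2 ratio was -0.048 after median centring and -0.18 after poly-A control scaling, with all other alternatives between -0.73 (plain probe sets) and -0.23 (loess). Genes of the 7 other lists past 2-fold numbered 33 in all, 56 at 1.5-fold and 18 at 3-fold. Of 424 single-carrier values, 145 moved by more than 0.28, the typical SD between probe sets of a gene. Median centring shifts every ratio by 0.42 and poly-A control scaling by 0.29, so all values under them count as moved. Of 182 counts for single lists, 36 moved by over 1.5 times. No paired analysis was possible because each condition has 1 array, and for the same reason no replicate could be left out. Signal near the floor limits Slc25a33, Slc25a35, Ucp3, Slc25a34 and Slc25a53. These genes, and also Slc25a23 and Slc25a47, are not measured with the floor at percentile 65.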
